A study of Hipposideros armiger with 2 samples.

Results

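Heat shock proteins and their cochaperones were described in 2 liver-labelled RNA libraries of the great Himalayan leaf-nosed bat, Hipposideros armiger. The members were all assembled genes whose protein name belonged to the HSP90, HSPA, HSPH, HSPB, HSPD, HSPE, DNAJA, DNAJB or DNAJC families, to the CCT ring (TCP1 included), or was HSF1 or HSF2. HSPG2 and HSPBP1 were left out. This gave 75 of 12783 distinct names, carried by 248 of 55378 assembled genes. The rule also takes HSPBAP1 and HSPB11 by the shape of their names.

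Both bats came from the CW cave (Chunwan City, Guangdong) and are labelled WT, liver and exposed to heavy metals. Only the second library is itself labelled male and adult, but the design text says that adult males were taken in each cave. They form 1 group of 2 libraries, here replicate 1 and replicate 2. No unexposed animal and no animal of the second cave was analysed here, so nothing below is an effect of metals, and no p-value was computed for 1 library against 1 library.

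Chaperones bind unfolded protein and help it fold, refold or be handed to degradation. HSP70 proteins (HSPA) take up exposed stretches of chain in cycles of ATP hydrolysis that J-domain proteins (DNAJ) start and nucleotide exchange factors end. HSP90 finishes the folding of kinases and steroid receptors, the CCT ring encloses actin and tubulin, HSPD1 with its lid HSPE1 does similar work in mitochondria, and small heat shock proteins (HSPB) hold unfolded protein without ATP. HSF1 is the factor that induces many of these genes under heat, toxic metals and other protein damage. The roles given here come from work in human, mouse and other model species, and a name here is the best Swiss-Prot match of an assembled gene, not a sequence-verified bat gene. Of the 75 names, 65 are symbols in the RefSeq annotation of this bat (ASM189008v1). For 9 RefSeq symbols under the same rule no assembled gene carried the name: DNAJB7, DNAJB8, DNAJC16, DNAJC27, DNAJC5B, DNAJC5G, DNAJC6, HSPB3 and HSPB9.

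The libraries held 18741210 expected counts in replicate 1 and 18778331 in replicate 2. All 8 hepatocyte markers examined were over 2-fold higher in replicate 1, with a summed level of 9329 TPM in replicate 1, against 251 in replicate 2 (TPM is a level scaled for transcript length and library size). Alveolar and airway markers summed to 11881 and 18911 TPM, motile cilia markers to 199 and 290, heart and skeletal muscle markers to 520 and 551, smooth muscle markers to 890 and 1217, and erythroid markers to 29895 and 36323. Hepatocyte markers, which define the labelled tissue, were thus low in replicate 2, with ALB at 7990 and 176 TPM. Alveolar and airway markers summed above the hepatocyte markers in both libraries, at 11881 against 9329 TPM in replicate 1 and 18911 against 251 TPM in replicate 2. The airway marker SCGB3A1 alone was at 8069 and 12898 TPM. In replicate 1 each sum thus rested mostly on a single gene, SCGB3A1 or ALB. Of the markers with an assembled gene 0 were at 0. The levels below are those of each library as a whole and not of hepatocytes. In such bulk RNA, fewer cells of a type and less RNA per cell cannot be told apart.

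Transcripts of the chaperone system were present in both libraries, with some names abundant and others low, and most names differed by less than 2-fold between the libraries. All members together took 0.370% of the TPM of replicate 1 and 0.407% of that of replicate 2. Their sum was 3687 TPM in replicate 1, against 4056 in replicate 2, or 3871 ± 260 (SD, n = 2). By counts they took 0.479% of replicate 1 (Wilson 95% interval 0.476% to 0.482%) and 0.527% of replicate 2 (0.524% to 0.531%); these intervals cover counting error only. Of the 75 names, 71 reached 1 TPM in both libraries, 48 reached 10 TPM and 6 reached 100 TPM. Those 6 were HSP90AA1, HSP90AB1, HSP90B1, HSPA8, HSPE1 and HSPB1. The median name had a mean of 16.2 TPM, beside 9.83 TPM over all names with a count. The 3 highest names held 42.0% of the members' TPM in replicate 1 and 38.7% in replicate 2.

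**Figure D1:**
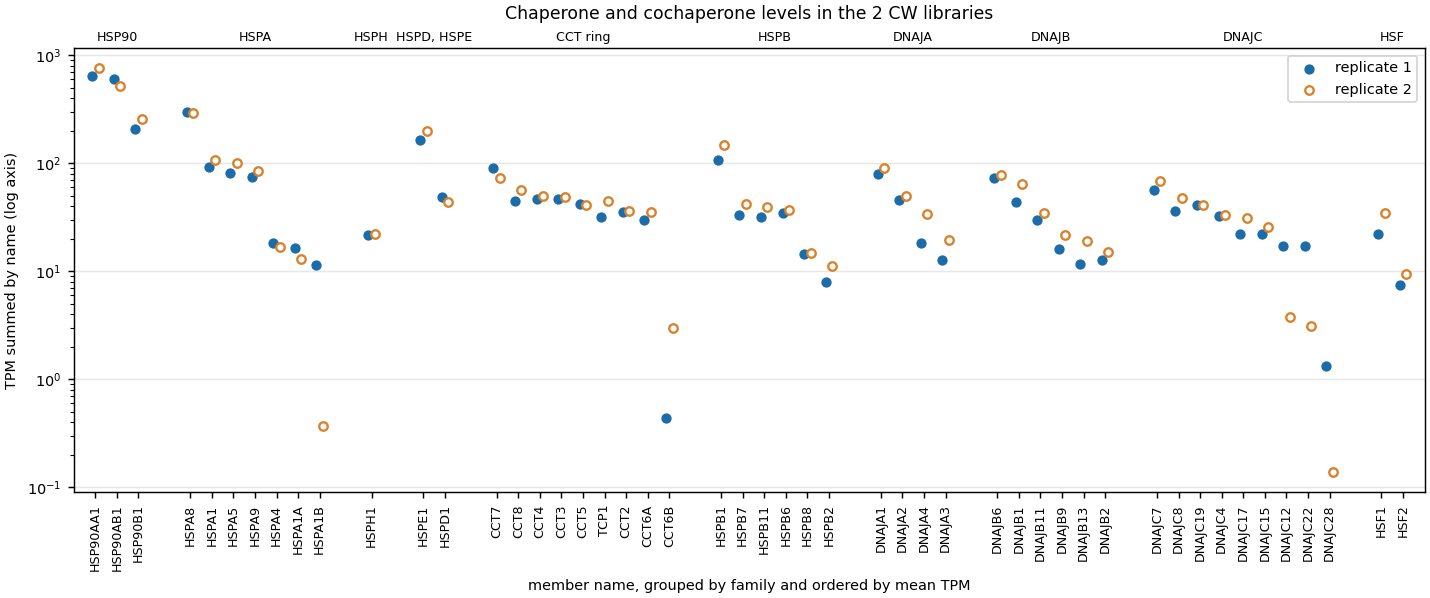
Level of 49 named members in each library, as summed TPM per name on a log axis, with families side by side and the highest member of each on the left. Filled points are replicate 1 and open points replicate 2. HSP90AA1 and HSP90AB1 stand highest at 522 to 757 TPM, most pairs lie close together, and HSPA1B, DNAJC12, DNAJC22 and DNAJC28 lie far higher in replicate 1. CCT6B, at 0.44 and 2.99 TPM from 2 and 12 counts, lies far higher in replicate 2.

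HSP90 was the most abundant family, with 1458 TPM in replicate 1, against 1537 in replicate 2, or 39.5% and 37.9% of the members' TPM. HSP90AA1, the stress-inducible cytosolic form, was at 649 TPM in replicate 1, against 757 in replicate 2 and ranked 81 among 12783 names by mean level. HSP90AB1, the constitutive cytosolic form, was at 601 and 522 TPM. HSP90B1, the HSP90 of the endoplasmic reticulum (ER), was at 207 and 257 TPM. The inducible form was thus listed above the constitutive form in both libraries, by 1.08 times in replicate 1 and 1.45 times in replicate 2.

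That order depended on how assembled genes were summed. HSP90AB1 was split over 13 assembled genes and HSP90AA1 over 18. The assembled gene with most counts of HSP90AB1 (1929 bases) was at 235 TPM in replicate 1, against 320 in replicate 2, and that of HSP90AA1 (2188 bases) at 251 and 330 TPM, so that the forms lay within 1.07 times of each other in replicate 1 and 1.03 times in replicate 2. A further HSP90AB1 assembled gene of 548 bases had 151 TPM from 317 counts in replicate 1 and 5.65 TPM from 18 counts in replicate 2. Another of 289 bases had 60 counts in replicate 1 and 0 in replicate 2. These pieces were picked as over 2-fold higher in replicate 1, so leaving them out must lower replicate 1 more. Without them HSP90AB1 summed to 417 TPM in replicate 1, against 517 in replicate 2, and nothing is read from that order. HSP90AB1 had 10874 counts in replicate 1 and 12430 in replicate 2. On the scaled count ratio described below, replicate 1 over replicate 2, it was at 0.07 on the log2 scale with every piece. Without the picked pieces it was at 0.02, a fall that follows from the same choice.

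**Figure D2:**
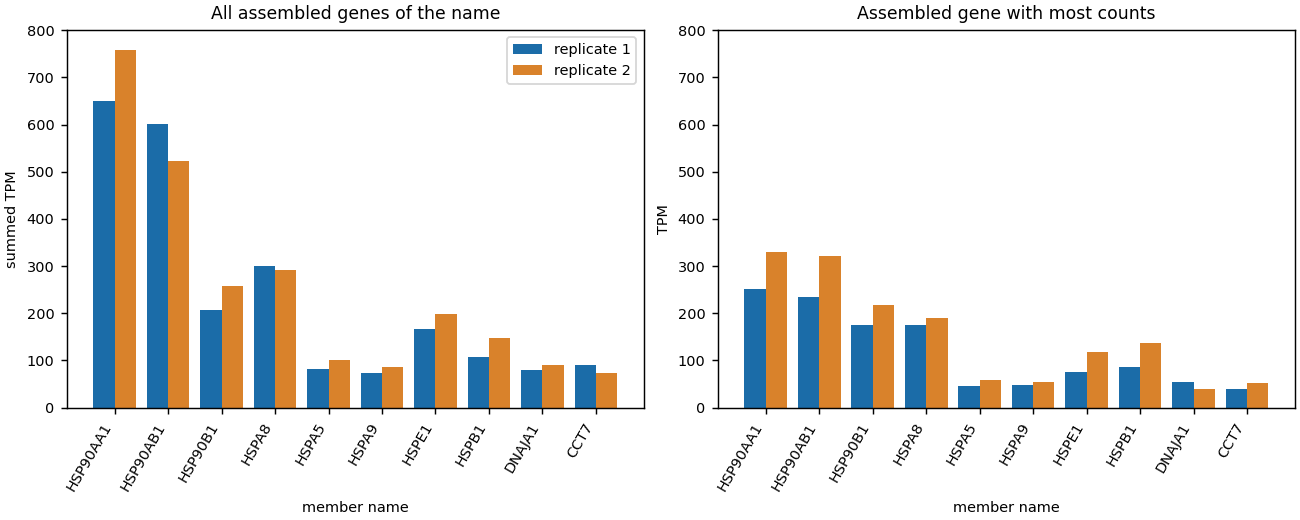
TPM of 10 abundant members in replicate 1 (blue) and replicate 2 (orange), on the left as the sum of every assembled gene with the name and on the right for the assembled gene with most counts, on equal linear axes from 0. HSP90AB1 changes from 601 against 522 TPM on the left to 235 against 320 TPM on the right.

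The HSP70 family (HSPA) held 14 names and 633 TPM in replicate 1, against 667 in replicate 2. HSPA8, the constitutive cytosolic HSP70, led with 300 TPM (9430 counts) in replicate 1 and 291 TPM (8931 counts) in replicate 2. The next was a single assembled gene of 2380 bases named HSPA1, the name of the stress-inducible HSP70 in the matched dog protein, at 93.1 and 106.9 TPM from 4129 and 4173 counts. HSPA8 was above HSPA1 by 3.22 times in replicate 1 and 2.73 times in replicate 2, and by 1.89 and 1.78 times between the assembled genes with most counts. HSPA5 (BiP), the HSP70 of the ER, was at 81.8 and 102 TPM, and HSPA9 (mortalin), that of the mitochondrial matrix, at 74.3 and 85.1 TPM. HSPA4, a relative of HSP110 that acts as an exchange factor for HSP70, was at 18.5 and 17.0 TPM. HSPH1 (HSP105), another such factor, was at 21.7 and 22.04 TPM.

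Names of the inducible HSP70 other than HSPA1 rested on short pieces. HSPA1A was spread over 4 assembled genes with 29 counts in replicate 1 and 17 in replicate 2, for 16.7 and 13.0 TPM. HSPA1B was 1 assembled gene of 359 bases with 35 counts in replicate 1 and 1 in replicate 2, for 11.5 and 0.37 TPM. These genes are near-identical copies in mammals, so reads can be split between them, and their separate values are uncertain. Counted as 1 group, the assembled genes named HSPA1, HSPA1A and HSPA1B had 4193 counts in replicate 1 and 4191 in replicate 2. Their log2 ratio of replicate 1 over replicate 2 was 0.26 after the scaling described below, a sum to which HSPA1A and HSPA1B add few counts. The remaining 7 HSPA names, among them HSPA2, HSPA13 and HSPA14, averaged 1.03 to 14.8 TPM.

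For the mitochondrial chaperonin, the transcript level of the lid exceeded that of the ring, and protein was not measured. HSPE1 (HSP10) was at 166 TPM in replicate 1, against 198 in replicate 2, while HSPD1 (HSP60) was at 48.4 and 44.1 TPM. HSPE1 was above HSPD1 by 3.44 times in replicate 1 and 4.49 times in replicate 2. Between the assembled genes with most counts the excess was 2.14 and 3.60 times, so its size depended on the pieces summed and its direction did not. HSPE1 had 2 well-covered assembled genes with opposite orders. The longer, of 1262 bases, had 1912 counts in replicate 1 and 2615 in replicate 2, and the shorter, of 588 bases, had 652 and 522 counts.

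The CCT ring of the cytosol is built from 8 different subunits in equal number. TCP1, CCT2, CCT3, CCT4, CCT5, CCT6A, CCT7 and CCT8 were each at 30.1 to 90.8 TPM in replicate 1 and 35.8 to 72.8 TPM in replicate 2. CCT7 was highest with 90.8 and 72.8 TPM, followed by CCT8 (44.8 and 56.8), CCT4 (47.1 and 49.5), CCT3 (47.2 and 48.8) and CCT5 (42.3 and 41.1). TCP1 was at 32.0 and 44.5 TPM, CCT2 at 35.8 and 36.1, and CCT6A at 30.1 and 35.8. Subunit totals thus spanned 3.01 times in replicate 1 and 2.03 times in replicate 2. For the assembled gene with most counts of each subunit the span was 1.87 and 2.16 times, from 21.6 to 40.4 TPM in replicate 1 and from 24.0 to 51.8 TPM in replicate 2. CCT7 was highest there too, at 40.4 and 51.8 TPM, whereas its lead in the replicate 1 totals included a 228-base piece with 22.9 TPM from 22 counts in replicate 1 and 0 counts in replicate 2. CCT6B, a form of the CCT6 subunit known from testis, had 2 counts in replicate 1 and 12 in replicate 2, both too low to compare, and was 1 of the 2 members under the filter on low values.

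Small heat shock proteins were led by HSPB1 (HSP27), which binds unfolded protein and actin, at 107 TPM in replicate 1, against 147 in replicate 2. HSPB7 (33.1 and 42.5 TPM), HSPB6 (34.7 and 36.8) and HSPB2 (7.95 and 11.2), which are known from heart and other muscle, were present in both libraries. HSPB8, which works with BAG3 in the removal of damaged muscle protein, was at 14.7 and 14.7 TPM. Heart and skeletal muscle markers summed to 520 and 551 TPM in the same libraries, and smooth muscle markers to 890 and 1217 TPM; their part in the HSPB levels was not tested. HSPB11, which despite its name is the intraflagellar transport protein IFT25, was at 31.8 and 39.9 TPM. HSPBAP1, which binds HSPB1, was at 3.88 and 7.17 TPM.

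J-domain cochaperones made up 37 of the 75 names. Among the DNAJA proteins, the closest relatives of bacterial DnaJ, DNAJA1 was at 80.6 TPM in replicate 1, against 89.8 in replicate 2, DNAJA2 at 46.1 and 49.7, DNAJA4 at 18.2 and 33.7 and the mitochondrial DNAJA3 at 12.8 and 19.5. DNAJA1 had 2485 counts in replicate 1 and 1835 in replicate 2. Among the 10 DNAJB names, DNAJB6, which holds aggregation-prone protein in check, was at 73.1 and 78.4 TPM, and DNAJB1 (HSP40), the heat-inducible partner of HSP70, at 44.1 and 64.4 TPM. The ER members DNAJB11 (30.05 and 34.8 TPM) and DNAJB9 (16.2 and 21.6 TPM) assist HSPA5. DNAJB2 was at 12.8 and 15.2 TPM. DNAJB13, an axonemal protein of motile cilia and sperm, was at 11.6 TPM in replicate 1, against 19.2 in replicate 2. The motile cilia markers, 8 of 8 of them found, summed to 199 and 290 TPM, with none at 0. By unscaled TPM 78.2% of all tested names were higher in replicate 2, so this shared direction set neither apart from most names. On the scaled count ratio described below, DNAJB13 was at -0.21 and the median of the markers at -0.08. The part of ciliated cells in the level of DNAJB13 was not tested.

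The DNAJC group, which shares little beyond the J domain, had 23 names at 347 TPM in replicate 1, against 389 in replicate 2. DNAJC7, which links HSP70 and HSP90, was highest at 56.4 and 69.2 TPM. DNAJC8, found in spliceosomes, was at 36.2 and 47.8 TPM, DNAJC19 of the mitochondrial inner membrane at 41.3 and 41.4, DNAJC4 at 32.7 and 33.2, DNAJC17 at 22.05 and 31.6, and DNAJC15, also of mitochondrial protein import, at 22.1 and 25.8. Apart from DNAJC12, DNAJC22 and DNAJC28, described below, the other 14 DNAJC names averaged 1.74 to 14.5 TPM.

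HSF1 was at 22.3 TPM (872 counts) in replicate 1 and 34.6 TPM (1173 counts) in replicate 2. HSF2, a relative that binds the same sequence, was at 7.56 and 9.46 TPM. Each rested on 1 assembled gene.

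Differences between the libraries were then measured on counts. Expected counts were summed by name and scaled by TMM. The ratio of replicate 1 over replicate 2 was formed from CPM + 1 (CPM, counts scaled to library size), put on a log2 scale and centred on the median of all names. A mean of 1 CPM was required, which left 73 of the 75 members. The ratio so defined understates the change of low names. The median of the 73 was 0.07, beside 0 over all 11289 tested names by construction, and 65 (89.0%) lay within 0.5 of 0, beside 89.1% of all tested names. Of the 73, 4 were over 2-fold higher in replicate 1 and 0 over 2-fold higher in replicate 2. Over all tested names 5.16% were over 2-fold higher in replicate 1 and 0.0266% in replicate 2, so the members' share was near the background. Ratios were above 0 for 49 members and below 0 for 24, beside 50.0% of all tested names above 0 by construction. With library size scaling only, 18 members were above 0 and 54 below. The median over all tested names was then -0.24 and not 0, and that of the members was -0.19, so the zero point had moved for all names.

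**Figure D3:**
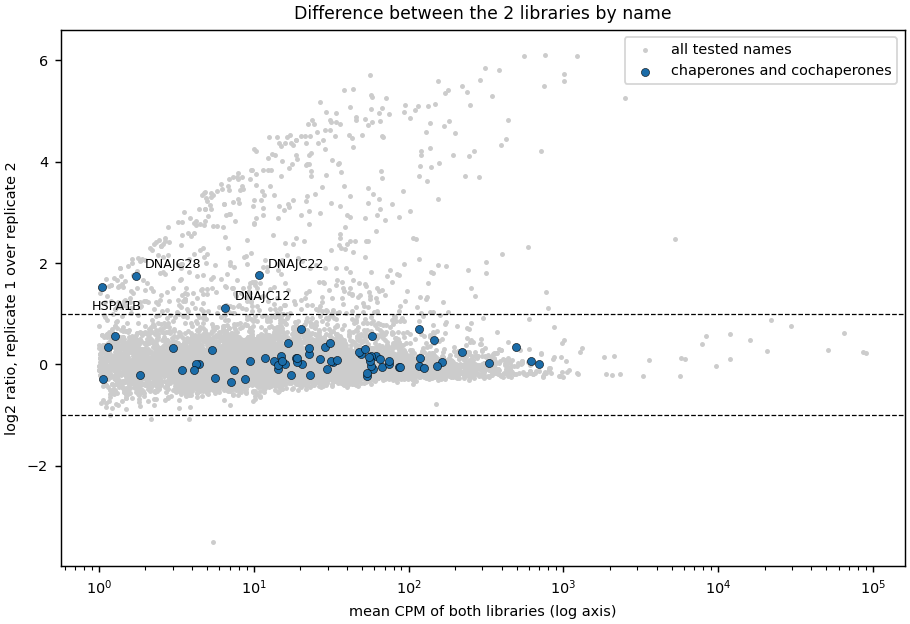
Log2 ratio of replicate 1 over replicate 2 against mean CPM (log axis) for all 11289 tested names (grey) and 73 chaperones and cochaperones (blue), with dashed lines at 2-fold. DNAJC12, DNAJC22, DNAJC28 and HSPA1B are the members above the upper line; 0 members lie below the lower line.

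Of those 4, DNAJC22, a little-studied membrane J-domain protein, had 293 counts in replicate 1 and 89 in replicate 2, or 17.3 and 3.13 TPM. Its log2 ratio was 1.76, a 3.39-fold difference. Without the pseudocount it was 1.98, with an exact binomial 95% interval of 1.63 to 2.34 for counting error only. DNAJC12, which is known in humans as the cochaperone of phenylalanine hydroxylase and related enzymes, had 160 and 77 counts, or 17.05 and 3.82 TPM. Its log2 ratio was 1.12, and 1.32 (0.92 to 1.73) without the pseudocount. DNAJC28, a little-studied J-domain protein, had 55 and 5 counts, with a log2 ratio of 1.75, and 3.72 (2.41 to 5.40) without the pseudocount. HSPA1B, with 35 counts in replicate 1 and 1 in replicate 2, had a log2 ratio of 1.53, and 5.39 (2.82 to 10.7) without the pseudocount. Hepatocyte markers, from ALB (83468 and 2592 counts) to TF (245 and 90 counts), moved in the same direction, and their median log2 ratio was 4.42, larger than for any of the 4 on the same scale. Their part in these differences was not tested.

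With library size scaling only, all ratios shift: the median over all names was then -0.24 and over the members -0.19, DNAJC22 and DNAJC28 remained over 2-fold, DNAJC12 was under it, and HSPA1B was below the filter. By unscaled TPM, 60 of the 73 members were higher in replicate 2, beside 78.2% of all tested names. With the median over all names removed from log2(TPM + 1) ratios, which was -0.33, 47 members were above 0 and 26 below. The direction of a difference under 2-fold thus depended on the scaling and centring.

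Below 2-fold, 4 members lay over 0.5 from 0, and all of them were higher in replicate 1. Within 0.5 of 0 lay 89.0% of the tested members and 89.1% of all tested names, so the members were near the background. The directions of all names between these limits were not counted, so nothing is read from the shared direction. HSPB8 had 432 and 310 counts and a log2 ratio of 0.70, DNAJA1 0.69, HSPD1 0.55 with 1190 and 965 counts, and HSPA1A 0.55 from 29 and 17 counts. HSPA9, with 2915 and 2488 counts, had 0.49, under that limit, and HSPE1, the lid of HSPD1, was at -0.02. With library size scaling only, HSPB8 was at 0.46, DNAJA1 at 0.44, HSPA1A at 0.42 and HSPD1 at 0.30, all within 0.5 of 0.

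Partners of the chaperones outside the naming rule were measured in the same way. Of 56 tested genes in 5 lists of cochaperones, prefoldins, crystallins, ER folding factors and mitochondrial proteases, 2 were over 2-fold higher in replicate 1 and 0 in replicate 2. Over all tested names the shares were 5.16% and 0.0266%, so these counts, and the counts of 0 in the short lists given next, were near the background. The median of their log2 ratios was 0.12; HSPBAP1 is counted here and among the members. The 2 were TRAP1, the mitochondrial HSP90, with 608 and 336 counts and a log2 ratio of 1.07, and CLPB, a mitochondrial disaggregase, with 85 and 34 counts and a log2 ratio of 1.16. Under 2-fold, GRPEL1, an exchange factor of HSPA9, had 557 and 365 counts and a log2 ratio of 0.84, while its relative GRPEL2 was at -0.03 with 91 and 112 counts. The crystallin CRYAB was at 0.57, the cochaperone BAG1 at 0.55 and the prefoldin VBP1 at 0.50. The 7 mitochondrial proteases and disaggregases, CLPB included, had a median of 0.19, and those other than CLPB ran from -0.10 (HTRA2) to 0.29 (CLPP). In the cochaperone list, 25 of 26 names were found; the highest were the HSP90 cochaperone PTGES3 (p23) at 99.1 TPM in replicate 1, against 133 in replicate 2, BAG6 at 93.9 and 92.6, and FKBP4 at 58.5 and 69.4. BAG3, induced by HSF1 and partner of HSPB8, was at 47.8 and 53.5 TPM.

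All 9 prefoldin and CCT partners were found, and 0 of 8 tested were over 2-fold apart, with PFDN6 at 46.8 and 53.1 TPM, PFDN2 at 43.5 and 48.9, and PFDN1 at 25.7 and 27.4. Of the 2 crystallins, CRYAB, a small heat shock protein of lens, heart and muscle, was at 67.0 and 59.1 TPM with a log2 ratio of 0.57, and no assembled gene was named CRYAA. Of ER folding and unfolded protein response genes 15 of 16 were tested and 0 were over 2-fold apart. Their highest were the lectin chaperone CALR at 323 and 256 TPM, the disulfide isomerase P4HB at 289 and 170 TPM, and ATF4, a transcription factor of the stress response, at 185 and 182 TPM. The gaps in TPM were not matched on counts. CALR had 7884 and 9011 counts and a log2 ratio of 0.07, and P4HB 7478 and 7367 counts and 0.28. Among the 7 mitochondrial proteases and disaggregases the highest were CLPP at 39.4 and 37.2 TPM, HTRA2 at 29.99 and 29.99, and LONP1 at 32.7 and 24.2.

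The libraries were also compared for each assembled gene apart. Of 248 member assembled genes, 127 passed the filter of 1 CPM; 11 of these, under 8 names, were over 2-fold higher in replicate 1 and 1 was over 2-fold higher in replicate 2. Over all 22025 tested assembled genes the shares were 6.81% and 0.0999%. The 11 had a median length of 548 bases, beside 1291 for the other tested members. They held 1.49% of the members' counts in replicate 1 and 0.260% in replicate 2, but 8.47% and 0.501% of the members' TPM. By length, 5 of 9 tested member pieces under 400 bases, 3 of 45 from 400 to under 1000 bases and 3 of 73 of 1000 bases or more were over 2-fold higher in replicate 1. Over all tested assembled genes the shares in these 3 classes were 24.4%, 8.44% and 4.51%. Short pieces were thus more often higher in replicate 1 across the whole assembly, and the 2 longer member classes were near their background. Of the 11, 8 were under 1 CPM in replicate 2 and passed the filter only through replicate 1, among them all 5 under 400 bases, so nothing is read from these shares. Among the names, the same holds for DNAJC28 and HSPA1B.

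HSP90AA1 had 3 such assembled genes, of 250, 395 and 624 bases, which together had 177 counts in replicate 1 and 5 in replicate 2, while its 2188-base assembled gene had 9994 and 12400 counts. HSPA8 had a 377-base piece at 56 and 2 counts, beside its 2261-base assembled gene at 8610 and 8213 counts. HSPB1 had a 794-base assembled gene at 213 and 61 counts, while its 857-base assembled gene had 1220 and 1733. Beside these, HSP90AB1 had the 2 pieces given above. The member assembled gene over 2-fold higher in replicate 2 was 1 of DNAJA4, of 1153 bases, with 37 and 129 counts. The pieces of HSP90AA1, HSP90AB1, HSPA8 and HSPB1 are given because they were over 2-fold higher in replicate 1. Their lower counts in replicate 2 follow from that choice, and nothing is read from them. Longer assembled genes of the same names differed by less than 2-fold. The source of these pieces was not tested. The best matches of all 248 were vertebrate proteins, 242 of them from mammals, and the deposited tables hold no sequences with which to place them.

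**Figure D4:**
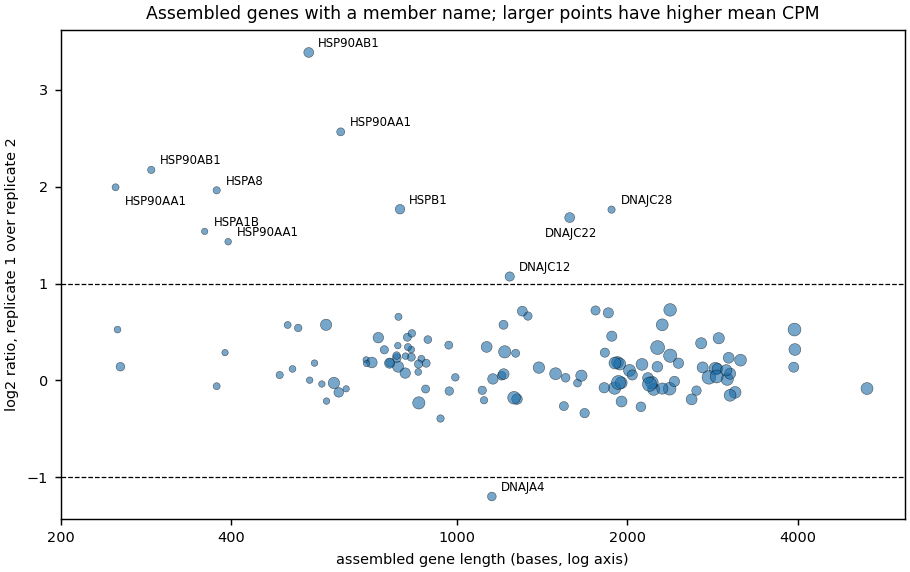
Log2 ratio of replicate 1 over replicate 2 against length in bases (log axis) for the 127 tested assembled genes with a member name, with point area growing with mean CPM and dashed lines at 2-fold. Of the 11 points above the upper line 8 are shorter than 1000 bases, and DNAJA4 is the point below the lower line.

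These short pieces also weigh on the levels. The 174 member assembled genes under 1000 bases held 8.30% of the members' counts in replicate 1 and 7.23% in replicate 2, but 40.8% and 34.2% of their TPM. A level summed over a name is thus partly set by pieces with few counts, as for HSP90AA1, whose 2188-base assembled gene held 85.1% of its counts and 41.3% of its TPM. DNAJB1, with 99.7% and 94.3%, and HSPH1, with 99.7% and 93.6%, were little affected.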

How the data were processed

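RNA from liver-labelled tissue was poly(A)-selected and sequenced, per the labels' protocols. For each library the authors deposited a table of 55378 Trinity-assembled genes, identical in both, their lengths, best Swiss-Prot matches and 2 value columns. The authors deposited expected counts, estimates per assembled gene with decimals and no normalization, in the column headed as counts; they were rounded to whole numbers here. The other deposited column has no unit in its header and was read as TPM because it sums to 996837 in replicate 1 and 996239 in replicate 2. The submitters' processing notes name cutadapt 1.9 and, for replicate 1 only, mm10; the assembler version and quantifier are not given in the sources used here. Assembled genes with no name, 8.70% and 9.69% of counts, stayed in library sizes and out of name sums.

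The members, lists and design were chosen with earlier results of these data known. TPM and counts were summed by upper-case name. TMM factors (edgeR 4.0.16, R 4.3.3; 0.910 and 1.10) were computed over all assembled genes. Ratios of replicate 1 over replicate 2 used a pseudocount of 1 CPM, a mean of at least 1 CPM and the median over names removed; over 2-fold was the limit for counting a name as different. Both libraries are 1 group, so no test between groups and no p-value was made. Wilson and exact intervals cover counting error only, as PCR copies of 1 molecule could not be told apart. A count of 3, 0.160 CPM, was set as the detection floor but was not used as a filter. Names below it in a library, such as HSPA1B in replicate 2, were kept. The ratio procedure was also run on simulated counts, with differences planted equally in both directions and only in names with higher counts. It did not cover differences at low counts or mostly in the same direction, so the calls here do not rest on it. Named are up to 6 highest members of each family, all of the CCT ring and both HSF, every member over 2-fold apart, up to 3 highest genes of each further list, and others chosen after their values were seen. Assembled genes named in the section on lengths were chosen by the same 2-fold limit. Computations used Python 3.11.15, pandas 2.3.3, numpy 2.4.6, scipy 1.17.1 and matplotlib 3.10.9. No genome was used.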

Additional observations from a re-analysis of the deposited data

How the results depend on the processing

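The summed level of 3871 TPM became 2524 TPM with the highest assembled gene of each name only and 2425 TPM with assembled genes of at least 1000 bases only, both because pieces are left out, and 5246 TPM when the 10 highest assembled genes were left out of the total. It ranged from 3687 to 4056 TPM without each replicate in turn, and 73 members reached 1 TPM in either library alone. The number of members over 2-fold apart, 4, became 1 under a filter of 10 CPM, which only DNAJC22 of the 4 passed, and 2 with library size scaling. The median log2 ratio became -0.19 with library size scaling. The other alternatives (pseudocount of 0.1, no filter, DESeq2 1.42.0 size factors, TPM, mammal matches, highest assembled gene per name) gave 4 members and medians between 0.06 and 0.08. The length limit of 1000 bases, which gave 3 members, and TMM with the median kept, which gave 4, were chosen after the data were seen. Ratios cannot be had without a replicate, so those alternatives were not run. No paired analysis was possible because all libraries belong to 1 group. Depth does not limit the abundant members; HSPA1L and CCT6B were too low to compare.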

Other observations

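Some heat shock names outside the rule had best matches to invertebrate proteins. HSP83, matched to Drosophila auraria, had 126 counts in replicate 1 and 100 in replicate 2. HSP60, matched to Drosophila melanogaster, had 47 and 51 counts. HSP-3, matched to Caenorhabditis briggsae, had 34 and 39 counts, and HSP-6, matched to Caenorhabditis elegans, had 11 and 14 counts. Their source was not tested.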
